A study of Sus scrofa with 16 samples.

Results

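Interferon-induced antiviral genes were followed in the subcutaneous fat of 16 pigs. The 8 genes are DDX58, IRF7, IRF1, MX1, MX2, OAS1, OASL and ISG15. A probe was taken where the array's own gene name was one of these, provided 8 or more arrays read it well above background. All 16 probes with such a name met this, each on 16 arrays, out of 32100 probes kept on the array and 4632 named genes. The pigs weighed 20 kg and were fed freely, and the tissue was labelled SCAT, the submitters' short form for subcutaneous adipose tissue. Of these pigs, 8 came from the low-RFI line and 8 from the high-RFI line. The lines were selected for opposite residual feed intake, the part of feed intake that growth and maintenance do not explain. RNA of each pig was read on 1 one-colour Agilent array. The adipocyte markers fixed for the check (ADIPOQ, FABP4, PLIN1 and others) were measured, 10 of 10.

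Interferons are secreted when cells sense viral nucleic acid. They act through surface receptors and the JAK and STAT proteins, and a complex that holds IRF9 switches on a shared set of antiviral genes. Type I interferons and interferon gamma share many targets, but interferon gamma acts through its own receptor and is made mainly by T and NK cells. DDX58 (RIG-I) is a sensor of viral RNA. IRF7 and IRF1 are transcription factors that amplify the response, IRF1 being strongly inducible by interferon gamma. MX1 and MX2 are dynamin-like GTPases, of which human MX1 blocks influenza virus. OAS1 makes a second messenger of the antiviral response when it binds double-stranded RNA, and OASL is a relative that in humans lacks that activity and binds DDX58. ISG15 is a ubiquitin-like protein attached to other proteins.

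The probes are 60-base oligonucleotides, and 6 are printed to show what was measured for MX1, OAS1, ISG15 and IRF7. The levels given are read from the brighter OAS1 probe (bases 871 to 930) and from the ISG15 and IRF7 probes shown, while those of MX1 come from a brighter probe (bases 2399 to 2458), with which the 2 shown correlated at 0.991 or more over the 16 arrays. Positions count from the start of the RefSeq transcript that the array's annotation names. The array files gave no genome position for these probes, so none is stated.
MX1, bases 1160 to 1219: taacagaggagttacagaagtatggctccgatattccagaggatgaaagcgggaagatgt
MX1, bases 1934 to 1993: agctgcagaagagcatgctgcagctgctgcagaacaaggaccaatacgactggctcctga
OAS1, bases 676 to 735: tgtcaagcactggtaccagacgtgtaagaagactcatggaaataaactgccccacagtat
OAS1, bases 871 to 930: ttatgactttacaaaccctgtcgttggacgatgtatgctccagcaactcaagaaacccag
ISG15, bases 565 to 624: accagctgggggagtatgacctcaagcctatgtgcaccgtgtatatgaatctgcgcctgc
IRF7, bases 1353 to 1412: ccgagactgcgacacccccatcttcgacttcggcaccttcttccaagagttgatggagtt

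Levels are log2 processed signals on a scale where 0 is the 75th percentile of the same array, and they are not compared between probes. A gene with several probes is shown by the one with the highest mean. Between 68.7% and 80.3% of spots were well above background on each array, and each array's median correlation with the other 15, across probes, lay between 0.953 and 0.979. In bulk tissue, fewer cells of a type and less RNA per cell cannot be told apart. Markers of tissues other than fat were high on some arrays. The 7 skeletal muscle markers averaged 9.35 log2 above their medians on low-RFI replicate 8. They averaged 2.28 on low-RFI replicate 6 and 1.44 on high-RFI replicate 7. The 4 epithelial markers averaged 3.83 on high-RFI replicate 6, 2.51 on high-RFI replicate 2 and 0.96 on high-RFI replicate 7. The median line difference of the 8 genes was 0.02 with low-RFI replicate 8 left out, 0.04 with high-RFI replicate 6 left out and -0.09 with high-RFI replicate 2 left out, against -0.02 over 16 arrays.

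The 8 genes did not separate the lines. The spread between pigs within a line was wider than the difference between line means for every gene, and the lines overlapped for all 8. The sensor DDX58 ran between -2.52 and -0.73 with a median of -2.02 in low-RFI pigs, and between -2.97 and -0.28 with a median of -2.15 in high-RFI pigs. IRF7 ran between 0.15 and 1.43 with a median of 0.73 in low-RFI pigs, and between 0.30 and 2.35 with a median of 0.67 in high-RFI pigs. IRF1 ran between 0.02 and 1.17 with a median of 0.69 in low-RFI pigs, and between 0.06 and 2.13 with a median of 0.59 in high-RFI pigs. For all 3 genes the highest value of the study was high-RFI replicate 5.

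Among the effectors, MX1 ran between 2.41 and 4.53 with a median of 4.10 in low-RFI pigs, and between 0.62 and 6.27 with a median of 3.51 in high-RFI pigs. Its 16 arrays spanned 50.5-fold, the widest of the 8 genes. MX2 ran between -0.66 and 1.61 with a median of -0.01 in low-RFI pigs, and between -1.15 and 2.11 with a median of -0.21 in high-RFI pigs. OAS1 ran between 1.59 and 4.04 with a median of 2.15 in low-RFI pigs, and between 1.17 and 3.98 with a median of 2.35 in high-RFI pigs. For OAS1 the top arrays of both lines were level on this probe, while its dimmer probe read 1.56 on low-RFI replicate 1 and 2.04 on high-RFI replicate 5. OASL ran between -4.08 and -0.90 with a median of -3.15 in low-RFI pigs, and between -3.47 and 0.56 with a median of -2.70 in high-RFI pigs. ISG15 ran between 3.25 and 5.91 with a median of 4.05 in low-RFI pigs, and between 2.83 and 6.41 with a median of 3.93 in high-RFI pigs. In each of MX2, OAS1, OASL and ISG15 the top low-RFI array was replicate 1 and the top high-RFI array was replicate 5.

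**Figure D1:**
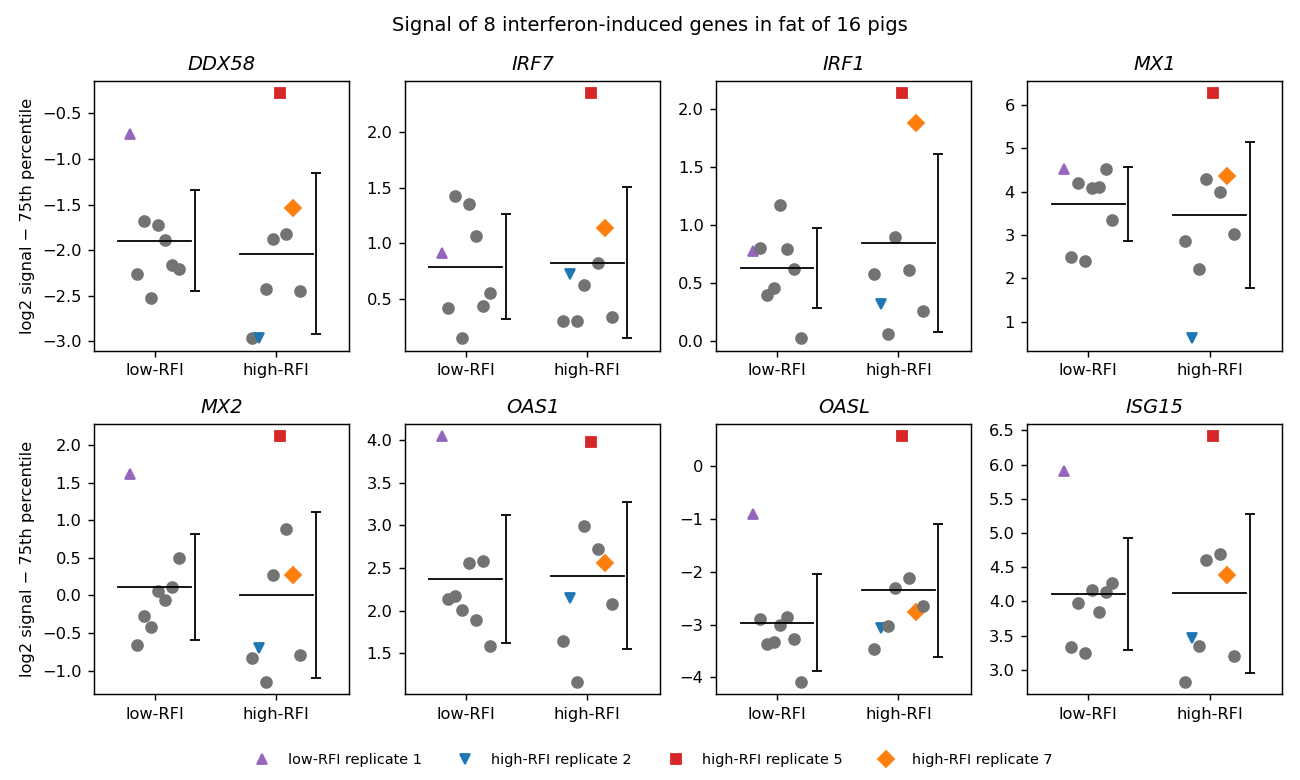
Log2 signal relative to the array's 75th percentile (y axis) of the 8 genes in low-RFI (left) and high-RFI (right) pigs, 1 point per pig; lines are means and bars are SD (n = 8 each). Low-RFI replicate 1 and high-RFI replicate 5 lie above the other pigs of their line for OAS1, OASL, MX2, ISG15 and DDX58, and the lines overlap for each gene.

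Over all 16 arrays, 0 of the 16 probes passed, with a Benjamini-Hochberg adjusted p of 0.9999 for each in the limma fit over 32100 probes. Of all probes 0.0% passed, and 3.68% had an unadjusted p under 0.05, as did 0 of the 16. The largest differences, low-RFI minus high-RFI, were -0.62 (SE 0.51) for OASL and 0.26 (SE 0.62) for MX1. The differences of the other 6 genes lay between -0.21 for IRF1 and 0.15 for DDX58. For ISG15 the difference was -0.01, with a 95% interval from -0.99 to 0.98, so changes of nearly 2-fold either way lie within it. The differences had both signs, with a median of -0.02 over the 8 genes, against 0.00 over all probes. The median moved to 0.25 without high-RFI replicate 5 and to -0.18 without low-RFI replicate 1. OASL was lower in low-RFI pigs on each of the 4 slides, by differences from -0.88 to -0.30, while the other 7 genes had both signs among slides. The share of all probes with the same sign on every slide is not given here, so this does not single out OASL. Low-RFI replicate 1 and high-RFI replicate 5 were both on slide 2.

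The lines stood in opposite order in replicates 1 to 4 and in replicates 5 to 8. In replicates 1 to 4 all 8 genes were higher in low-RFI pigs, with a median difference of 0.58 and a range from 0.14 for IRF1 to 0.91 for MX1 (0.28 without high-RFI replicate 2), against 48.5% of all probes with a positive difference. Of the 16 probes, the second IRF1 probe alone was negative there, at -0.07. In replicates 5 to 8 all 8 were lower in low-RFI pigs, with a median of -0.52 and a range from -1.57 for OASL to -0.31 for IRF7, against 50.1% of all probes with a negative difference. The 8 genes moved together over the 16 arrays, with a median Pearson r of 0.748 over their pairs. Their shared signs, here and in the comparisons below, are therefore not 8 separate observations. ISG15 averaged 4.11 ± 1.24 in low-RFI and 3.56 ± 0.75 in high-RFI pigs of replicates 1 to 4 (SD, n = 4 each). In replicates 5 to 8 it averaged 4.10 ± 0.18 in low-RFI and 4.67 ± 1.33 in high-RFI pigs (SD, n = 4 each).

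High-RFI pigs of replicates 5 to 8 had the highest mean of the 4 sets for all 8 genes, and high-RFI pigs of replicates 1 to 4 the lowest for 7, all but OASL. OASL averaged -2.62 ± 1.17 in low-RFI and -2.96 ± 0.49 in high-RFI pigs of replicates 1 to 4, and -3.31 ± 0.54 in low-RFI and -1.74 ± 1.56 in high-RFI pigs of replicates 5 to 8 (SD, n = 4 each). DDX58 averaged -1.80 ± 0.79 in low-RFI and -2.56 ± 0.52 in high-RFI pigs of replicates 1 to 4, and -1.99 ± 0.23 in low-RFI and -1.52 ± 0.91 in high-RFI pigs of replicates 5 to 8 (SD, n = 4 each). The spread was widest in the sets that hold the raised arrays for OASL and DDX58.

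None of these differences passed the test. The smallest adjusted p in the limma fit was 0.849 in replicates 1 to 4 and 0.855 in replicates 5 to 8, and 0.0% of all probes passed in either. The limma fit gave OASL in replicates 5 to 8 an unadjusted p of 0.0345 (SE 0.67, adjusted p = 0.855), and no other member was under 0.05 there, against 5.79% of all probes. The change of the line difference between the 2 sets was negative for all 8 genes, with a median of -1.18 and a smallest adjusted p of 0.735 in the limma fit, against 49.7% of all probes negative and 0.0% passing. The size of the opposite order rested largely on 1 array in each set. These 2 arrays were picked for their high values of the same genes, so leaving them out was bound to shrink the differences. Without low-RFI replicate 1 the median in replicates 1 to 4 was 0.13, and OASL and ISG15 were then at -0.23 and -0.05. Without high-RFI replicate 5 the median in replicates 5 to 8 was -0.02, and MX1, MX2, ISG15 and IRF7 were then positive. With both left out, the median change between the sets was -0.33, and it stayed negative for every gene but ISG15.

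**Figure D2:**
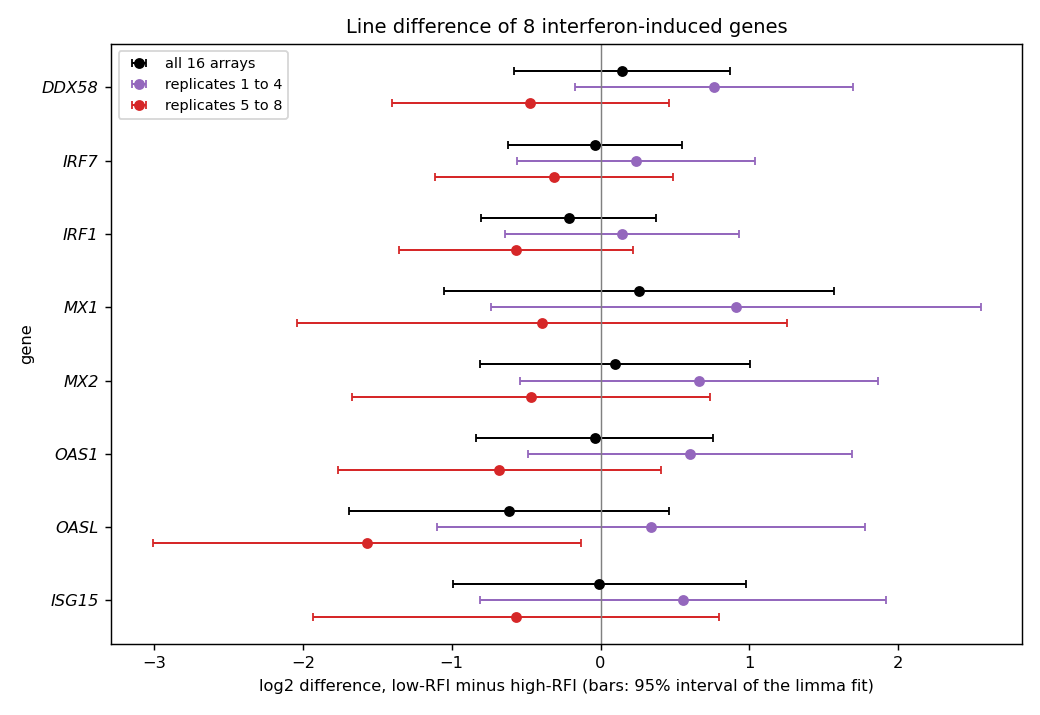
Log2 difference, low-RFI minus high-RFI (x axis), of each gene over all 16 arrays, in replicates 1 to 4 and in replicates 5 to 8, with the 95% interval of the limma fit. The replicates 1 to 4 points lie to the right of 0 and the replicates 5 to 8 points to the left for all 8 genes, and only the OASL interval of replicates 5 to 8 does not reach 0.

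All 8 genes had a higher mean in replicates 5 to 8 than in replicates 1 to 4 with the lines averaged, by a median of 0.41, against 45.2% of all probes. In high-RFI pigs, whose replicates 5 to 8 hold the raised replicate 5, all 8 were higher. In low-RFI pigs MX1, MX2, IRF1 and IRF7 were higher, while OASL, OAS1, DDX58 and ISG15 were lower. OAS1, for example, averaged 2.59 in replicates 1 to 4 and 2.16 in replicates 5 to 8 of low-RFI pigs. MX1 differed by 1.26 (SE 0.54, adjusted p = 0.178 in the limma fit), and 0 of 16 member probes passed, while 5.18% of all probes did. What sets the 2 runs of replicate numbers apart is not given in the sources used here. MX1 averaged 4.02 ± 0.50 in low-RFI and 4.41 ± 1.36 in high-RFI pigs of replicates 5 to 8, and 3.42 ± 1.11 in low-RFI and 2.50 ± 1.53 in high-RFI pigs of replicates 1 to 4 (SD, n = 4 each).

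High values were carried by single arrays. An array was counted as raised for a gene at 1 log2 or more above the gene's median over the 16 arrays. On low-RFI replicate 1 the 5 genes OASL, OAS1, MX2, ISG15 and DDX58 were raised on their brightest probes, by 1.29 to 2.05 log2, where 2.63% of all probes were. Over all probes of the 8 genes, 7 of 16 were raised there and 16 of 16 on high-RFI replicate 5. On low-RFI replicate 1 IRF1 stood at 0.16, IRF7 at 0.24 and MX1 at 0.49 log2 above their medians. The other MX1 probes lay farther above their medians there, though none by 1 log2. All 8 genes were raised on high-RFI replicate 5, where 4.15% of all probes were, and OASL stood highest at 3.52 log2 (11.4-fold) above its median. At a threshold of 2 log2, 1 gene (OASL) was raised on low-RFI replicate 1, against 0.178% of all probes, and 4 (OASL, ISG15, MX1 and MX2) on high-RFI replicate 5, against 0.668%. The only other raised value was IRF1 on high-RFI replicate 7, at 1.27 log2, where 1.68% of all probes were raised. On the remaining 13 arrays 0 of the 8 genes were raised, with 1.17% to 2.72% of all probes. Averaged over the 8 genes, low-RFI replicate 1 stood at 1.20 and high-RFI replicate 5 at 2.12, and the next array, high-RFI replicate 7, at 0.47. High-RFI replicates 3 and 2 were the lowest, at -0.76 and -0.75. Low-RFI replicate 1 and high-RFI replicate 5 were also the 2 arrays with the lowest 75th percentile signal, 401 and 435 in that order, where the next was 465, and high-RFI replicate 5 had the lowest share of spots well above background, at 68.7%. After quantile scaling, which gives all arrays 1 distribution, 5 of the 8 genes were raised on low-RFI replicate 1 and 8 on high-RFI replicate 5. The part of array signal and background in the raised values was not tested.

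**Figure D3:**
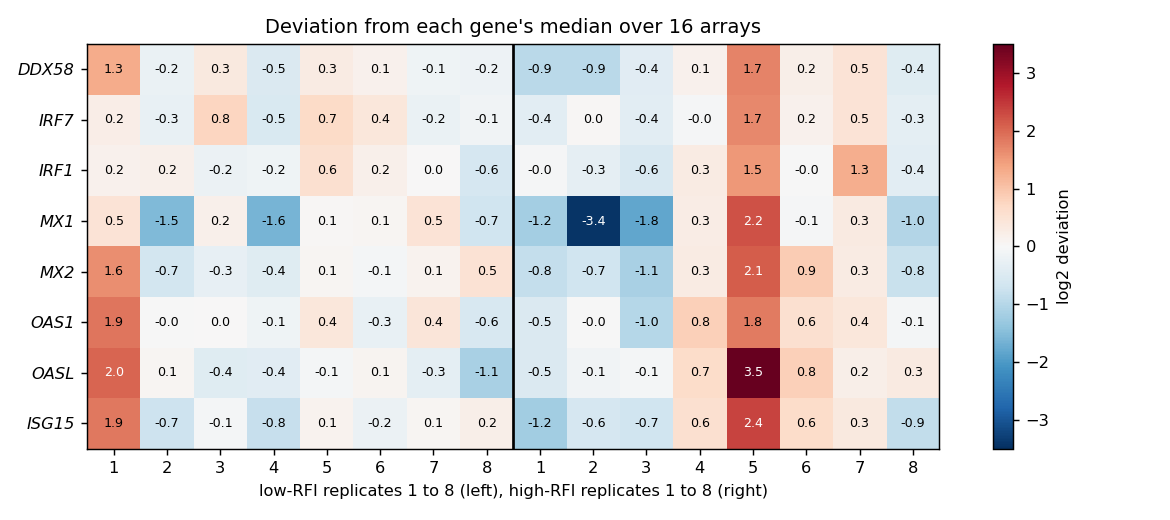
Log2 deviation of each gene (rows) from its median over the 16 arrays, by array (columns, low-RFI left of the line, high-RFI right of it); red is above and blue below the median. High-RFI replicate 5 is above the median by at least 1.5 log2 for all 8 genes, low-RFI replicate 1 by 1.29 to 2.05 log2 for the OAS genes, MX2, ISG15 and DDX58, and MX1 is at -3.4 on high-RFI replicate 2.

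The arrays were hybridised on 4 slides, each with 1 array of either line from replicates 1 to 4 and 1 from replicates 5 to 8. Low-RFI replicate 1 and high-RFI replicate 5 shared slide 2 with low-RFI replicate 5 and high-RFI replicate 2, whose means over the 8 genes were 0.26 and -0.75. With slide as a block the median line difference was -0.02, as without it.

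MX1 was lowest on 1 array, which the outlier limit used in the closing section did not flag. All 5 MX1 probes were lowest on high-RFI replicate 2, which was noticed after the values were seen, and the next lowest array was 1.23 to 1.72 log2 higher. The array lay 2.97 to 3.53 log2 below the median of the other 15, which is 7.82- to 11.5-fold. A gap at least as large as the smallest of the 5 was found at the bottom on that array for 0.0875% of all probes. MX2, its paralogue and near neighbour in the gene order of RefSeq's Sscrofa11.1 table, was at -0.69 there on its brighter probe, the fourth lowest value, and lowest on its other probe. DDX58 was second lowest there on its brighter probe, 1.08 log2 below the median of the other 15 arrays. IRF1 was the fourth lowest on its brighter probe, and OAS1 the third lowest on its dimmer one. ISG15, OASL, IRF7 and the brighter OAS1 probe were sixth lowest or higher. Without high-RFI replicate 2 the MX1 line difference over the remaining arrays was -0.15, against 0.26 with it, and in replicates 1 to 4 it was 0.28, against 0.91.

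The 8 genes moved together from pig to pig. Over the 28 pairs of genes and 16 arrays, Pearson's r ran from 0.595 for MX2 and IRF1 to 0.968 for MX2 and ISG15, with a median of 0.748, and Spearman's rho from 0.418 to 0.938, with a median of 0.657. By permutation with Benjamini-Hochberg adjustment over the 28 pairs, 28 passed for r and 23 for rho. The permutation shuffled all 16 arrays freely. The share of other gene pairs that pass is not given here, so these counts do not single out the 8 genes. With the mean of each line in each set of replicates removed, r ran from 0.496 to 0.968 with a median of 0.701. Since 2 arrays stand apart, r was recomputed without the 2 arrays farthest from the median of each pair's first gene: it ran from 0.148 to 0.910 with a median of 0.533 and was positive for all 28 pairs. The pair MX2 and ISG15 had r = 0.968 and rho = 0.938 (permutation test, adjusted p = 0.00014 and 0.00028), and r = 0.910 without the 2 arrays.

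OASL depended most on the raised arrays. Its r with the other 7 genes ran from 0.605 to 0.850 over 16 arrays, and from 0.148 to 0.597 once low-RFI replicate 1 and high-RFI replicate 5 were left out. ISG15 kept a median r of 0.673 and DDX58 of 0.673 with the other genes on the same 14 arrays. Within low-RFI pigs the median r over the 28 pairs was 0.585, with 27 positive, and within high-RFI pigs 0.867. Within replicates 1 to 4 it was 0.649 and within replicates 5 to 8 it was 0.845. The probes of 1 gene ran together too, with r from 0.991 to 0.998 among the 5 of MX1, 0.974 for the 2 of MX2 and 0.859 for the 2 of OAS1.

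**Figure D4:**
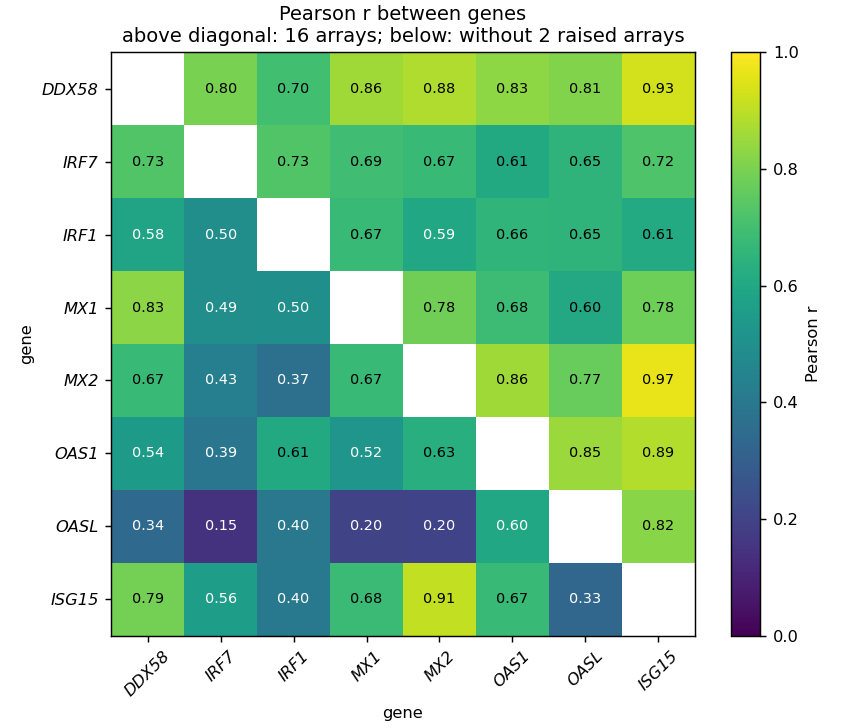
Pearson r between the 8 genes, with all 16 arrays above the diagonal and without low-RFI replicate 1 and high-RFI replicate 5 below it. The highest value is that of MX2 and ISG15 in both parts, and the row of OASL holds the lowest values below the diagonal.

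Of the 10 named genes outside the group whose signal was most like the average of the 8, out of 4515 compared by Pearson's r over 16 arrays, 9 are given as a description. They were IFIH1 and DHX58, relatives of DDX58, at r = 0.957 and 0.955, IRF9 at 0.955, DDX60 at 0.951, IRG6 at 0.942, PARP12 at 0.938, PKR, the kinase that binds viral RNA, at 0.938, IFIT3 at 0.920 and BST2, which tethers virus particles, at 0.908. Without the 2 highest arrays these values ran from 0.643 for BST2 to 0.946 for IRF9.

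The 2 raised arrays differed in the rest of the pathway. Of all probes, 2.63% were raised on low-RFI replicate 1 and 4.15% on high-RFI replicate 5. Of 9 other interferon-induced effectors found under their listed names, 5 were raised on low-RFI replicate 1 and 7 on high-RFI replicate 5. BST2, IFIT1, IFIT3 and OAS2 were raised on both. PKR and IRG6, which the list holds under other names, are not among the 9. They stood at 1.04 and 2.24 log2 above their medians on low-RFI replicate 1, and at 1.45 and 2.62 on high-RFI replicate 5. Of 13 interferon gamma targets, 1 (PSMB8) was raised on low-RFI replicate 1, with a mean of 0.14 log2, and 10 on high-RFI replicate 5, with a mean of 1.83. The T-cell attracting chemokines CXCL9, CXCL10 and CXCL11 deviated from their medians by -1.43, -0.03 and -0.36 log2 on low-RFI replicate 1 and by 3.16, 3.43 and 3.35 on high-RFI replicate 5. The GTPases GBP1, GBP2 and GBP4 deviated by -0.09, 0.51 and 0.54 on low-RFI replicate 1, and by 1.74, 1.77 and 2.57 on high-RFI replicate 5.

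Markers of T and NK cells and of macrophages were raised on 1 of the 2 arrays. The counts below stand beside 2.63% of all probes raised on low-RFI replicate 1 and 4.15% on high-RFI replicate 5. Some genes are in more than 1 list: GZMB is both a T and NK cell and a plasmacytoid dendritic cell marker, and TLR7 both a sensor and a plasmacytoid dendritic cell marker. Of 7 T and NK cell markers, 0 were raised on low-RFI replicate 1 (mean -0.38) and 5 on high-RFI replicate 5 (mean 1.56), and over the other 14 arrays the mean ran from -1.10 to 0.64. CD3E and CD8A deviated by -0.14 and -0.67 on low-RFI replicate 1, and by 1.90 and 1.57 on high-RFI replicate 5. Of 4 macrophage markers, 0 were raised on low-RFI replicate 1 (mean -0.33) and 4 on high-RFI replicate 5 (mean 1.66). The other 14 arrays ran from -0.56 to 0.42. CD163 stood at -0.56 on low-RFI replicate 1 and 2.20 on high-RFI replicate 5. CXCL13, which attracts B cells, was at -0.69 on low-RFI replicate 1 and 4.43 on high-RFI replicate 5. The 3 B and plasma cell markers averaged -0.13 on low-RFI replicate 1 and -0.09 on high-RFI replicate 5, with 0 raised on either. The 4 neutrophil markers averaged -0.27 with 0 raised on low-RFI replicate 1, and -0.50 with 1 raised and 2 lowered by 1 log2 or more on high-RFI replicate 5. Of 5 plasmacytoid dendritic cell markers, 0 were raised on low-RFI replicate 1 and 2 on high-RFI replicate 5, and of 6 lymph node and lymphatic vessel markers 1 was raised on low-RFI replicate 1 and 3 on high-RFI replicate 5. Of 13 nucleic acid sensors, adaptors and kinases, 1 (DHX58) was raised on low-RFI replicate 1 and 6 on high-RFI replicate 5. The part of these cells in the results was not tested. On high-RFI replicate 7, where IRF1 was raised alone among the 8, 4 of the 13 gamma targets were raised (CXCL10, GBP1, GBP2 and GBP4), with a mean of 0.72 log2, the highest of the 14 remaining arrays. Of all probes, 1.68% were raised on that array.

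**Figure D5:**
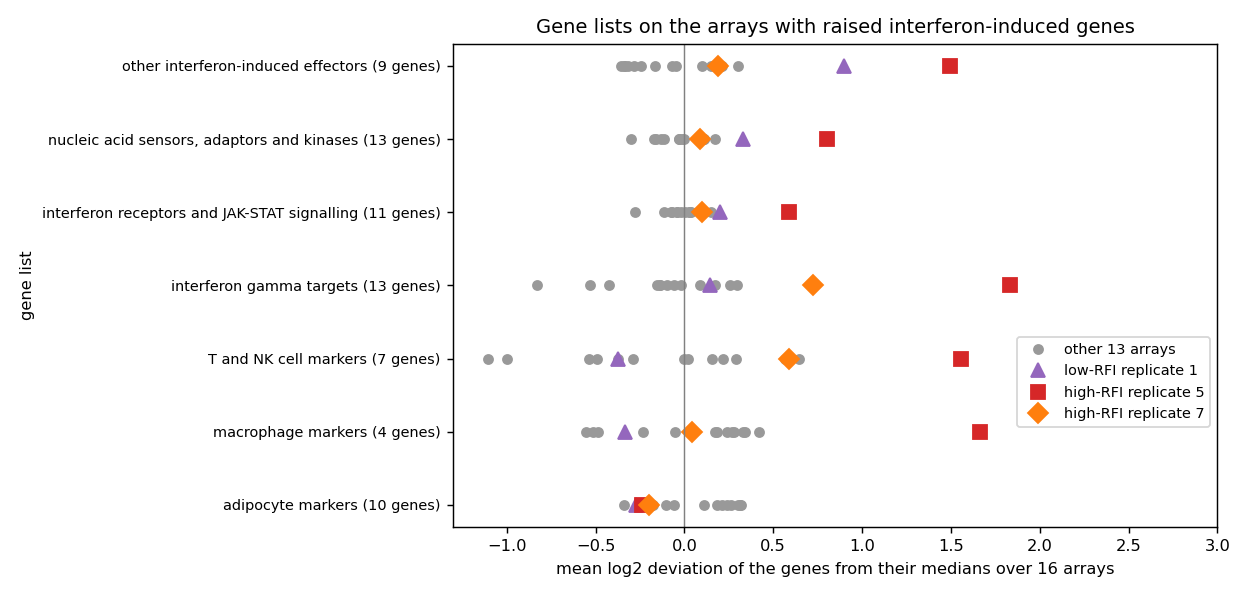
Mean log2 deviation from the medians over 16 arrays (x axis) of 7 gene lists (rows), with low-RFI replicate 1, high-RFI replicate 5 and high-RFI replicate 7 marked among all 16 arrays. High-RFI replicate 5 lies far right for every list but the adipocyte markers, low-RFI replicate 1 mainly for the other interferon-induced effectors, and high-RFI replicate 7 lies second for the interferon gamma targets.

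Of 8 listed interferon genes, 4 had a named probe here and 2 of these were kept. IFNG, the gene of interferon gamma, was well above background on only 11 arrays. It stood at -0.42 from its median on low-RFI replicate 1, 1.36 on high-RFI replicate 5 and 0.92 on high-RFI replicate 7. IFNA1, a type I interferon, stood 0.65 above its median on low-RFI replicate 1 and 0.47 on high-RFI replicate 5, and was well above background on 14 arrays. In the limma fit 0 members of any list passed in any line comparison. The receptor gene IFNGR1 was lower in low-RFI pigs by a difference of -0.31 (SE 0.13, unadjusted p = 0.0270, adjusted p = 0.9999) and the kinase gene JAK2 by -0.24 (SE 0.11, unadjusted p = 0.0445, adjusted p = 0.9999), in the limma fit. The differences of the other genes named by the rule, with the smallest p of their list, were -0.57 for TLR7, a sensor of RNA in endosomes, -1.18 for CXCL9, -0.58 for GBP1, -0.35 for OAS2, -0.17 for TRIM21, -0.06 for IRF3, -0.05 for IRF9, -0.36 for PTPN6 and 0.12 for PTPN11. None passed.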

How the data were processed

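The deposited intensities were processed signals that, per the file headers, came from Agilent Feature Extraction 10.7.3.1, background subtracted and not normalised between arrays. The deposited value table holds log2 values that equal the log2 processed signal minus the array median over its own spots (Pearson r = 1.0, column median 0), and the submitters' processing notes name R 2.10.0. Replicates here are separate pigs. Spots that Feature Extraction marked as outliers were dropped (610 values, 0.119%, are missing among the kept probes), repeated spots averaged, and the array's 75th percentile subtracted. Of 43603 probes, 32100 were kept: well above background on at least 8 arrays, with at least 6 values per line. No spot was saturated, and the number of arrays limits the precision. Line comparisons used limma 3.58.1 under R 4.3.3 (two-sided, line alone, and line by replicates 1 to 4 or 5 to 8), with Benjamini-Hochberg adjustment over all kept probes at a threshold of 0.05. The fit was tested on simulated data. Correlations used 100000 permutations in Python 3.11.15 with numpy 2.4.6, and figures matplotlib 3.10.9. The genes named are the 8 members, the 10 most like them, and from each list the 2 with the smallest p as none passed; others were chosen after their values were seen. Some genes that this rule picks are not reported here, and list counts include them. The members and lists were chosen with earlier results of these data known.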

Additional observations from a re-analysis of the deposited data

Results flagged for a closer look

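Of 32 groups of 8 arrays (1 line and 1 probe each), 6 had an array farther from its line than Dixon's 95% limit allows. That limit flags about 1 in 20 independent groups by chance. These groups share pigs and hold correlated probes, so the 6 cannot be set against that rate. The share flagged among all probes is not given here. On low-RFI replicate 1 the flagged values were OASL at -0.90, OAS1 at 4.04, ISG15 at 5.91 and DDX58 at -0.73, each the highest of 8 low-RFI arrays. On high-RFI replicate 5 they were OASL at 0.56 and IRF7 at 2.35, each the highest of 8 high-RFI arrays.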

How the results depend on the processing

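No member probe passed in any comparison under any setting tried. The line difference over 16 arrays changed sign with normexp background correction for OAS1 (0.05), MX2 (-0.02), ISG15 (0.11), IRF7 (0.02) and DDX58 (-0.13), with array weights for OAS1 (0.01), ISG15 (0.13) and IRF7 (0.16), and without the 2 raised arrays for ISG15 (0.06) and IRF7 (0.16). Without those 2 arrays OASL (-0.23) and ISG15 (-0.05) changed sign in replicates 1 to 4, MX1 (0.23), MX2 (0.03), ISG15 (0.01) and IRF7 (0.08) in replicates 5 to 8, and ISG15 (0.06) in the change between the sets, whose median was then -0.33. MX1 in replicates 5 to 8 was 0.03 with array weights. The median r of the pairs was 0.62 with normexp and 0.53 without the 2 arrays. At a threshold of 2 log2, low-RFI replicate 1 had 1 raised gene and high-RFI replicate 5 had 4. The cause was not tested. The other 398 single-gene and 114 summary values kept their direction or moved by less than the spread. Leaving out each array in turn, the line difference ran from -0.02 to 0.40 for DDX58, -0.13 to 0.18 for IRF7, -0.27 to 0.32 for ISG15, -0.15 to 0.66 for MX1, -0.12 to 0.40 for MX2 and -0.28 to 0.19 for OAS1. In replicates 1 to 4 it ran from -0.05 to 0.90 for ISG15, -0.23 to 0.59 for OASL and 0.28 (without high-RFI replicate 2) to 1.51 for MX1, and in replicates 5 to 8 from -0.59 to 0.08 for IRF7, -1.06 to 0.01 for ISG15, -0.86 to 0.23 for MX1 and -0.94 to 0.03 for MX2. The OASL difference of replicates 5 to 8 minus replicates 1 to 4, with the lines averaged, ran from -0.11 to 0.56. Same-numbered pigs did not deviate together (r from -0.147 to 0.115, and 1 of 8 numbers correlated best with itself), and with the replicate block the median line difference was -0.02 and no member was called. Over all probes, 1663 passed between replicates 5 to 8 and replicates 1 to 4, against 5 with normexp, 6363 with array weights, 848 without the filter on dim probes, 853 without the 2 raised arrays and 573 to 4719 when each array was left out. In replicates 1 to 4, 5 probes passed the line comparison when those 8 arrays were fitted alone and 1 with the replicate block, against 0.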
